A study of Bos taurus with 27 samples.

Results

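The chaperones and disulfide isomerases of the endoplasmic reticulum (ER) described here were followed in colon tissue of newborn calves. Of 9 genes listed (CALR, CANX, HSPA5, HSP90B1, PDIA3, PDIA4, PDIA6, P4HB and HYOU1), 8 had a single gene identifier and were found among the 24616 genes of the count table. HSPA5 had no identifier in the gene lists used and was not analysed here. The list was selected on a readout of these samples. CALR and CANX tended to be higher in calves that received their first colostrum at 12 h. Values of TRT12 against TRT0 or TRT6 are thus given below as a description, with no test of the members. The test of the interaction of treatment and dam parity also draws on TRT12 calves.

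The samples were colons of 27 male Holstein calves, all killed at 51 h of age. The first colostrum meal was given directly after birth (TRT0), at 6 h (TRT6) or at 12 h (TRT12), to 9 calves each. In every treatment 4 calves were born to primiparous heifers (H) and 5 to multiparous cows (C), which gave the groups TRT0_H, TRT0_C, TRT6_H, TRT6_C, TRT12_H and TRT12_C. All calves were fed the same pooled, pasteurized colostrum by tube and moved to milk replacer 12 h after that meal, so the treatments also differed in the number of milk replacer meals and in the time since colostrum. The tissue was a whole segment of colon wall, cut distal to the ileo-cecal junction.

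Secreted and membrane proteins are folded in the lumen of the ER. Calnexin and calreticulin are lectins that hold newly made glycoproteins through a sugar tag, HSP90B1 (GRP94) and HYOU1 (GRP170) are heat shock family chaperones, and the protein disulfide isomerases make and rearrange disulfide bonds. In the gut these proteins are known for their load in cells with heavy secretion, such as the mucin-making goblet cells and the antibody-making plasma cells.

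Library totals in the deposited count table lay between 1163791 and 4202593 counted reads. The paper reports far more sequenced reads per sample, and the reason for the smaller totals is not given in the sources used here. Depth and counting error below refer to the totals of this table and not to the sequencing as a whole. Markers of epithelium (7 of 9 with an identifier) and of smooth muscle (8 of 8) were detected, none at 0. Identifiers came from the study's lists of core genes and of network module genes, which are expressed in these samples. Detection of a marker with an identifier was thus largely fixed in advance and is no check of the label of colon tissue. TRT12_H calf 1, TRT6_H calf 2 and TRT6_C calf 9 had the lowest median correlation with the other libraries, 0.907 to 0.928, and the main comparisons are given also without them. The calves were sequenced in 3 lanes (11, 11 and 5 calves), and lane was called at an adjusted p of 0.1 or less in 336 of 13943 genes tested (2.41%, edgeR). In bulk tissue, fewer cells of a type and less RNA per cell cannot be told apart.

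All 8 members passed the filter on low counts and were measured in every calf with 98 reads or more. Mean levels over the 27 calves, as counts scaled to the library total (CPM), were 689 for CALR, 714 for CANX, 684 for HSP90B1, 123 for HYOU1, 424 for PDIA3, 262 for PDIA4, 130 for PDIA6 and 555 for P4HB. These levels are not corrected for transcript length and do not rank the genes against each other. The SD between calves was 16.99% of the mean for CANX and 32.3% for HSP90B1, the least and the most variable members, against a counting error of 2.68% and 2.83%. HYOU1 had the largest counting error, 6.70%, and an SD between calves of 29.9%. The spread between calves was thus larger than counting error in every member. These values of counting error do not cover the preparation of the libraries.

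**Figure D1:**
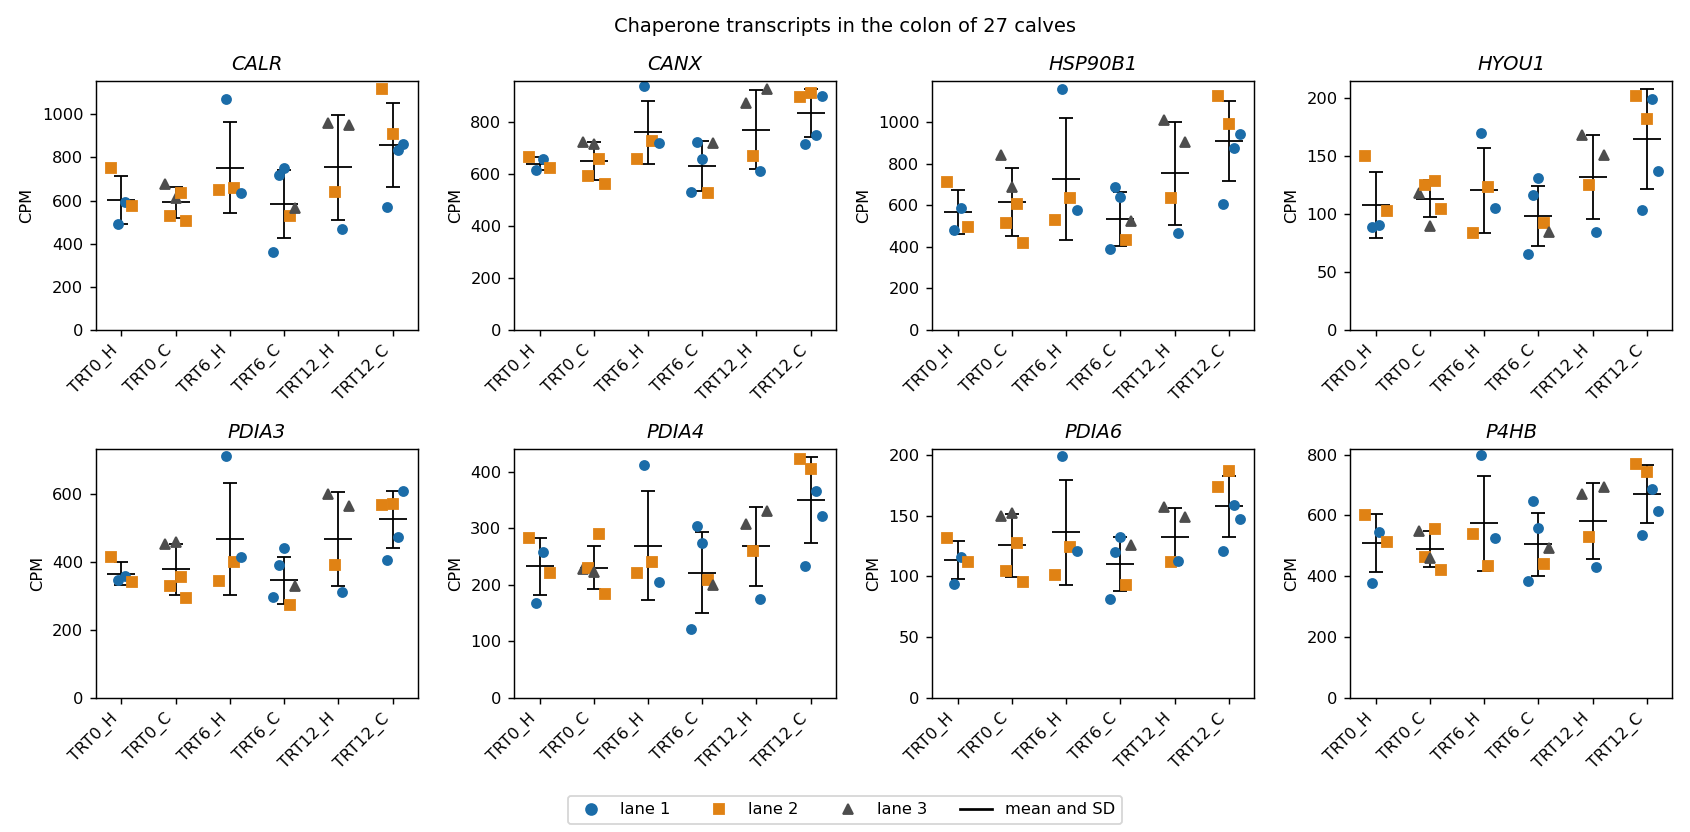
CPM of the 8 chaperone genes in each of 27 calves (points, marked by sequencing lane) for the 6 groups of treatment and dam parity, with the group mean and SD (black). In each panel 1 TRT6_H calf stands above the other TRT6_H calves, and TRT12_H calves spread over the range of the other groups.

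CALR encodes calreticulin, the soluble lectin chaperone of the ER lumen, which also binds calcium. Its level ran from 489 to 752 CPM in TRT0 calves (median 595), from 363 to 1070 CPM in TRT6 calves (median 649) and from 467 to 1117 CPM in TRT12 calves (median 864). The groups overlapped, with 6 of 9 TRT12 calves above the highest TRT0 calf and 1 of 9 above the highest TRT6 calf. Here and below, such counts describe the comparisons the members were selected on. No count over all genes is set beside them, so they do not show whether the members are unusual. The highest TRT6 value belonged to TRT6_H calf 2, and the next highest TRT6 calf was at 750 CPM.

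CANX encodes calnexin, the membrane-bound partner of calreticulin. It ran from 561 to 724 CPM in TRT0 (median 657), from 526.2 to 938 CPM in TRT6 (median 719) and from 613 to 930 CPM in TRT12 (median 873). CANX varied least, and the highest calf had 1.78 times the level of the lowest. Again 6 of 9 TRT12 calves lay above all TRT0 calves, and none above TRT6_H calf 2.

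HSP90B1 encodes the HSP90 family chaperone of the ER, GRP94, which folds a limited set of clients such as integrins and Toll-like receptors. It ran from 419 to 843 CPM in TRT0 (median 587), from 389 to 1159 CPM in TRT6 (median 575) and from 465 to 1126 CPM in TRT12 (median 904). The TRT12 calves were above the TRT0 range in 6 of 9 cases, while TRT6_H calf 2 alone among TRT6 calves was above it and TRT6_C calf 4 alone was below it. HYOU1, a large HSP70-related chaperone that acts as nucleotide exchange factor for the ER HSP70, ran from 88.2 to 150 CPM in TRT0 (median 104), from 65.3 to 169 CPM in TRT6 (median 105) and from 84.2 to 202 CPM in TRT12 (median 150). For HYOU1, 5 of 9 TRT12 calves exceeded every TRT0 calf.

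The 4 disulfide isomerases likewise had TRT6_H calf 2 as their highest TRT6 calf. PDIA3 (ERp57), which works on glycoproteins held by calnexin and calreticulin, ran from 294 to 458 CPM in TRT0 (median 355), from 272 to 711 CPM in TRT6 (median 392) and from 312 to 610 CPM in TRT12 (median 565). PDIA4 (ERp72), an isomerase with additional thioredoxin-like domains, ran from 168 to 289 CPM in TRT0 (median 227), from 122 to 412 CPM in TRT6 (median 220) and from 174 to 422 CPM in TRT12 (median 321). In PDIA3 and PDIA4 the same number of TRT12 calves, 6 of 9, lay above the TRT0 range.

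PDIA6 (P5) is an isomerase that associates with the ER HSP70. Its level ran from 94.0 to 152 CPM in TRT0 (median 116), from 81.3 to 199 CPM in TRT6 (median 121) and from 112 to 187 CPM in TRT12 (median 149), with 4 of 9 TRT12 calves above the TRT0 range. P4HB, the classical protein disulfide isomerase and also the beta subunit of collagen prolyl 4-hydroxylase, ran from 378 to 600 CPM in TRT0 (median 511), from 383 to 798 CPM in TRT6 (median 525.6) and from 430 to 768 CPM in TRT12 (median 672). For P4HB, 6 of 9 TRT12 calves were above the highest TRT0 calf. In TRT12 the calves above the TRT0 range belonged in all members to 6 animals, TRT12_H calves 1 and 9 and TRT12_C calves 2, 6, 7 and 8. TRT12_H calves 3 and 4 and TRT12_C calf 5 were below the highest TRT0 calf in all 8 members.

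In TRT12 vs. TRT0, the comparison the members were selected on, all 8 log2 fold changes were above 0. They were 0.47 ± 0.16 (SE, 9 against 9 calves) for CALR, 0.34 ± 0.12 for CANX, 0.51 ± 0.19 for HSP90B1 and 0.45 ± 0.15 for HYOU1. Those of the isomerases were 0.44 ± 0.16 for PDIA3, 0.46 ± 0.17 for PDIA4, 0.30 ± 0.15 for PDIA6 and 0.36 ± 0.14 for P4HB. The median over the members was 0.44, and that over all 13943 genes tested was -0.0039. Over the whole table, at an adjusted p of 0.1 or less and a fold change of 1.2 or more, edgeR called 0 of 13943 genes (0%), of which 1307 had an unadjusted p below 0.05. DESeq2 called 51 genes out of the 697 that its independent filtering left for adjustment (7.32%), and 0 genes with that filtering switched off. Without the 3 least similar libraries the member fold changes were between 0.28 and 0.47.

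In TRT12 vs. TRT6 the 8 log2 fold changes were also above 0, from 0.22 ± 0.14 for P4HB to 0.46 ± 0.15 for HYOU1, with CALR at 0.29 ± 0.16 and CANX at 0.22 ± 0.12. Their median was 0.31, and edgeR called 0% of all genes, where 438 had an unadjusted p below 0.05. Without the 3 least similar libraries the members lay between 0.30 and 0.55. As a description, the values by parity stood apart. In TRT12_C vs. TRT6_C all 8 members were above 0, with a median of 0.61, and in TRT12_H vs. TRT6_H 1 of 8 was above 0, with a median of -0.06 that became 0.20 without TRT6_H calf 2. Whether treatment differences depended on parity was tested by the interaction term, which was called in none of the members, with the limits given below. TRT12 is shared by both overall comparisons.

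TRT6 vs. TRT0 did not enter the choice of the members, although TRT0 calves did. Its log2 fold changes were 0.17 ± 0.16 for CALR, 0.12 ± 0.12 for CANX, 0.09 ± 0.19 for HSP90B1, 0.12 ± 0.16 for PDIA3, 0.11 ± 0.17 for PDIA4, 0.04 ± 0.15 for PDIA6, 0.15 ± 0.14 for P4HB and -0.0062 ± 0.15 for HYOU1. The largest, that of CALR, was about as large as its SE, and an interval of 2 SE on either side ran from -0.15 to 0.50. None of 8 members was called (adjusted p = 1.0, edgeR quasi-likelihood test) in a comparison where 0% of genes were called and 437 had an unadjusted p below 0.05. Without TRT6_H calf 2 alone, CALR was at 0.05 and CANX at 0.05. Without the 3 least similar libraries, which include that calf, CALR was at 0.07, CANX at 0.03, P4HB at 0.05, HYOU1 at -0.09, HSP90B1 at -0.08, PDIA3 at -0.01, PDIA4 at -0.02 and PDIA6 at -0.11.

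**Figure D2:**
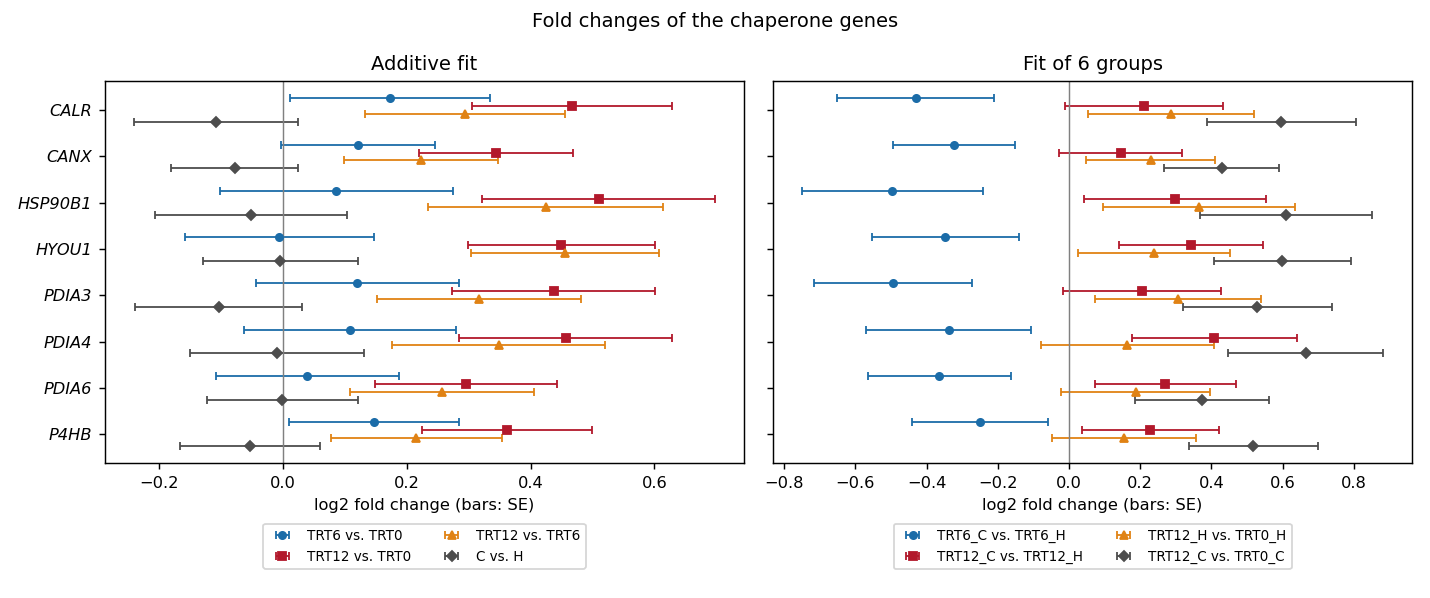
Log2 fold change (horizontal axis) with its SE for each chaperone gene, in the fit with additive terms for treatment and dam parity (left) and in the fit of 6 groups (right). The 8 genes lie between 0.30 and 0.51 in TRT12 vs. TRT0, near 0 in C vs. H, and below 0 in TRT6_C vs. TRT6_H.

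Dam parity was not used in choosing the members. Over all treatments, C vs. H log2 fold changes lay between -0.11 ± 0.13 for CALR and -0.00093 ± 0.12 for PDIA6, with a median of -0.05. None was called by edgeR or DESeq2 (lowest adjusted p among the members 0.9999, edgeR), in a comparison in which 0% of genes were called and 352 genes had an unadjusted p below 0.05. Without the 3 least similar libraries HSP90B1 was at 0.11 and HYOU1 at 0.11, so these values had no stable sign.

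Within TRT6, C calves were lower than H calves in all 8 members, with log2 fold changes from -0.25 ± 0.19 for P4HB to -0.50 ± 0.25 for HSP90B1 and a median of -0.36. PDIA3, at -0.49 ± 0.22, had the lowest p of the members, and none was called (adjusted p = 0.998 for PDIA3, edgeR), with 0% of all genes called and 538 genes at an unadjusted p below 0.05. The median difference was -0.14 without TRT6_H calf 2 and -0.16 without the 3 least similar libraries. The TRT6_H calves had 649, 1070, 657 and 634 CPM of CALR in calves 1, 2, 3 and 7, and TRT6_C calves had 363, 718, 750, 529 and 565 CPM in calves 4, 5, 6, 8 and 9. Apart from TRT6_H calf 2, the H values lay inside the C range.

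Within TRT12 the sign was the other way. C calves were higher than H calves in all 8 members, from 0.14 ± 0.17 for CANX to 0.41 ± 0.23 for PDIA4, with a median of 0.25. None was called (adjusted p = 0.9998 for PDIA4, edgeR), with 0% of genes called and 374 genes at an unadjusted p below 0.05. PDIA4 was at 422, 234, 405, 365 and 321 CPM in TRT12_C calves 2, 5, 6, 7 and 8, and at 308, 259, 174 and 330 CPM in TRT12_H calves 1, 3, 4 and 9. The median difference was 0.14 without TRT12_H calf 4, 0.36 without TRT12_H calf 9, 0.33 without the 3 least similar libraries, and 0.48 with lane as a covariate.

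Whether the treatment difference depended on dam parity was tested by the interaction term. It was called in 0 of 8 members (lowest adjusted p 0.999, edgeR) and in 1 of 13943 genes (0.00717%), RGS2, a regulator of G protein signalling that is no member and is named because it was the 1 gene called. The term also draws on TRT12 against TRT0, the comparison the members were selected on, and each group held only 4 or 5 calves. That no member was called does not show that the treatment difference was the same in C and H calves. As a description, the median member log2 fold change of TRT12 against TRT0 was 0.56 in C calves, with a range of 0.37 to 0.67, and 0.23 in H calves. With lane as a covariate these medians were 0.70 in C calves and 0.02 in H calves. The H median was 0.12 without TRT12_H calf 9 and 0.34 without TRT12_H calf 4, and 0.15 without the 3 least similar libraries. The lanes were unevenly filled, with 2 TRT12_H calves and no TRT0_H calf in lane 3, and 2 TRT0_C calves and no TRT12_C calf in that lane. In TRT0_C vs. TRT0_H, TRT6_H vs. TRT0_H and TRT6_C vs. TRT0_C the median member log2 fold changes were -0.04, 0.27 and -0.06, and 0 of 8 members and 0% of genes were called in each by edgeR, where 351, 467 and 272 genes had an unadjusted p below 0.05. The TRT6_H vs. TRT0_H median fell to 0.03 without TRT6_H calf 2.

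Lane itself was tested with treatment and parity in the fit and was called in 0 of 8 members (lowest adjusted p 0.445, edgeR), against the 2.41% of all genes given above. For a value within lanes, the 8 members were put on a common scale, as the mean over members of the log2 CPM (scaled with TMM factors) minus the 27-calf mean. TRT0 calves had a mean deviation of -0.157 ± 0.223 (SD, n = 9), TRT6 calves of -0.089 ± 0.402 and TRT12 calves of 0.246 ± 0.311, and without the 3 least similar libraries the TRT6 and TRT12 means were -0.187 and 0.232. In lane 1 it was -0.207 in 2 TRT0 calves, 0.042 in 5 TRT6 calves and 0.109 in 4 TRT12 calves. The lane 2 means were -0.238 (5 TRT0 calves), -0.266 (3 TRT6 calves) and 0.328 (3 TRT12 calves). Lane 3 gave 0.097 (2 TRT0 calves), -0.215 (1 TRT6 calf) and 0.397 (2 TRT12 calves). TRT12 calves had the highest mean in each lane, and the value of TRT6 relative to TRT0 changed sign between lanes. The list was selected on these TRT12 calves, and a lane held only 1 to 5 calves of a treatment. The order of treatments within lanes is thus a description, with no test. The mean deviation also moved with depth, with r = -0.345 and rho = -0.288 against the log2 library total over 27 calves (r = -0.397 without the 2 most extreme totals). For single members the median r was -0.338, against 0.0312 over all tested genes, of which 6.99% lay at or below the member median. The part of depth in the treatment values was not tested. Median totals were 2257342 reads in TRT0, 1814105 in TRT6 and 2246958 in TRT12.

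**Figure D3:**
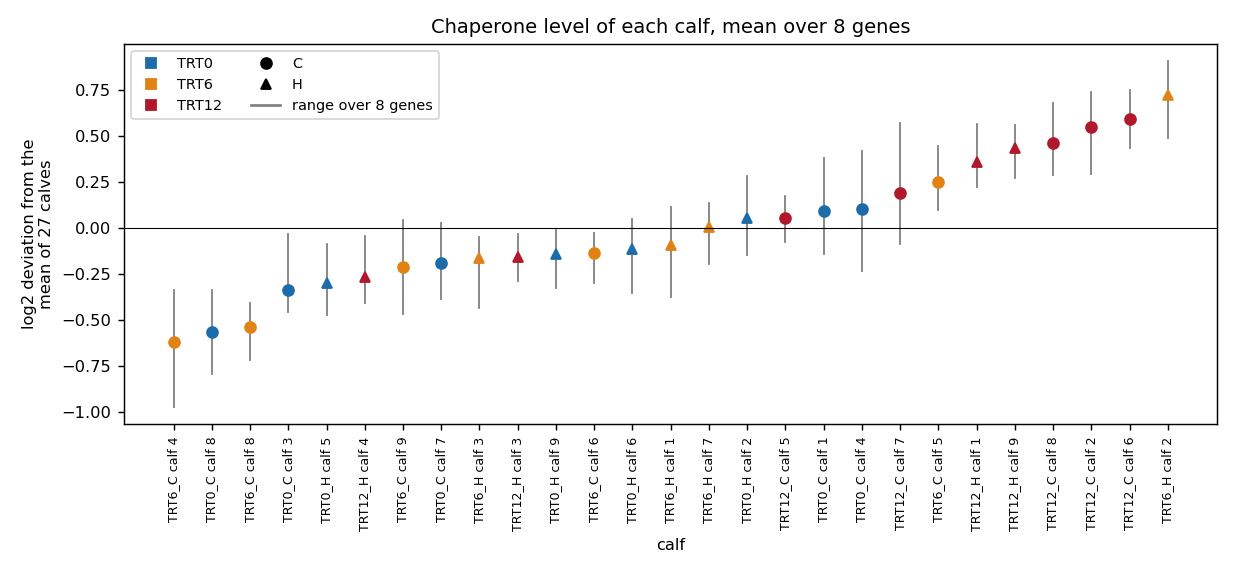
Mean log2 deviation of the 8 chaperone genes from the mean of 27 calves (points, coloured by treatment, shaped by dam parity), with the range over the genes (lines), for calves in rising order. TRT6_H calf 2 is the highest at 0.72 and TRT6_C calf 4 the lowest at -0.624.

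The members moved together from calf to calf. Over 27 calves the 28 pairs of members had a median r of 0.892, from 0.655 for CANX with HYOU1 to 0.959 for HSP90B1 with PDIA3. Over all pairs of tested genes the median r was -0.001, and 0.532% of them were at or above the lowest pair of members. The tested genes include many with far fewer reads than the members, and counting error lowers r between such genes. No background of genes at the level of the members was made. This share, and the places among the nearest genes below, thus do not show how unusual the members are. All points share the library and its depth. The median was 0.847 as Spearman's rho, 0.912 within lane 1, 0.938 within lane 2, and 0.882 for what was left after treatment, parity and lane were removed. In the 24 calves left without the 3 least similar libraries the pairs ran from 0.629 to 0.956, with a median of 0.873. A single component held 88.8% of the variance of the 8 genes.

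**Figure D4:**
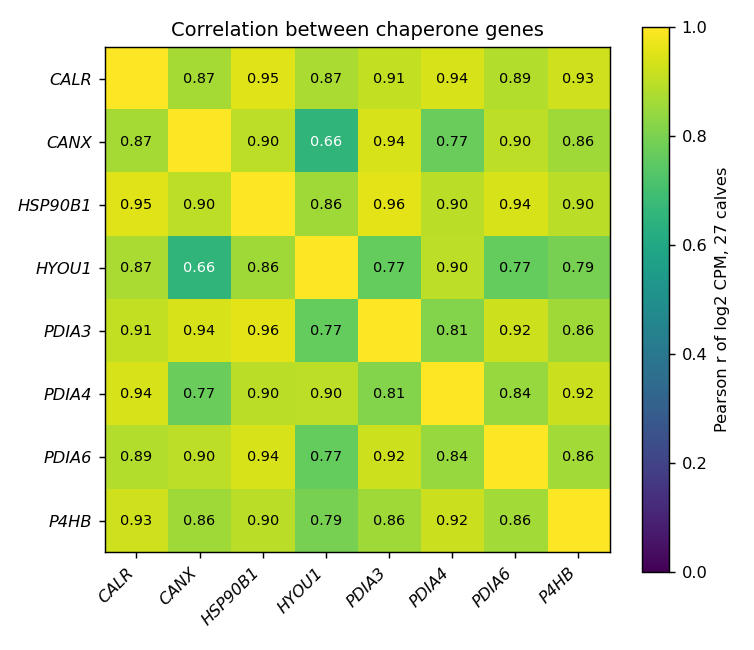
Pearson r of log2 CPM over 27 calves for each pair of the 8 chaperone genes (colour and printed value). The lowest values are in the row of HYOU1, where CANX has the lowest r of 0.655.

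The size of the swing differed between members. Regressed on the mean of the other 7, HSP90B1 had a slope of 1.33 ± 0.0576 (SE), PDIA4 1.11 ± 0.0920, CALR 1.09 ± 0.0549 and PDIA3 1.04 ± 0.0811. HYOU1 was at 0.923 ± 0.115, PDIA6 at 0.876 ± 0.0711, P4HB at 0.817 ± 0.0663 and CANX at 0.693 ± 0.0721. On this scale HSP90B1 swung more widely from calf to calf than the other members together, and CANX and P4HB less widely. The calves with the highest mean deviation were TRT6_H calf 2 (0.72), TRT12_C calf 6 (0.591), TRT12_C calf 2 (0.55), TRT12_C calf 8 (0.458), TRT12_H calf 9 (0.435) and TRT12_H calf 1 (0.359), in all of which each of the 8 members was above its mean. In TRT6_C calves 4 and 8 and TRT0_C calf 8, the lowest calves, each member was below its mean.

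The genes closest to the members across calves were named for the 3 highest r of each member. RPN2, a subunit of the oligosaccharyltransferase that attaches sugar chains to new proteins, was closest to P4HB (r = 0.965) and also near CALR (r = 0.944) and PDIA3 (r = 0.929). Its partner RPN1 was closest to PDIA4 (r = 0.941), and the catalytic subunit STT3A was closest to PDIA6 (r = 0.944). CANX was closest to TMED7, a cargo receptor of early secretory vesicles (r = 0.950), and had the peroxiredoxin PRDX1 next after PDIA3 (r = 0.933). P4HB had the ER prolyl isomerase PPIB (r = 0.945) and the glycolytic enzyme ENO1 (r = 0.940) next. HYOU1 was closest to ENSBTAG00000007662, a gene without a symbol in the lists used (r = 0.933), which also stood near HSP90B1 (r = 0.944), and had LRRC59, an ER membrane protein, next after PDIA4 (r = 0.874). For each member, 5 to 7 of the other 7 members were among its 100 nearest genes of 13943.

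Markers of other cell types were set beside the member levels. Of 7 goblet cell markers listed, 3 had an identifier (TFF3, AGR2 and CLCA1), so the mucin gene MUC2 could not be read. TFF3 is a trefoil peptide and CLCA1 a secreted metalloprotease of mucus, and AGR2 is itself an ER protein of the disulfide isomerase family needed for mucin. None of the 3 was at 0 in any calf, and their summed level ran from 459 to 1232 CPM in TRT0, from 466.4 to 1590 CPM in TRT6 and from 521 to 1499 CPM in TRT12. Their mean log2 deviation followed that of the 8 members, with r = 0.843 and rho = 0.882 over 27 calves (r = 0.882 without the 2 most extreme calves). Among the 9 calves of a treatment r was 0.551 for TRT0, 0.930 for TRT6 and 0.817 for TRT12, and it was 0.822 after treatment, parity and lane were removed. It was 0.847 over the 24 calves left without the 3 least similar libraries, and 0.958 in the 7 TRT6 calves among them. Of the single genes, AGR2 had r = 0.887, TFF3 0.626 and CLCA1 0.464 with the member mean.

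In TRT12 vs. TRT0 the log2 fold changes were 0.36 ± 0.26 for AGR2, 0.31 ± 0.18 for TFF3 and 0.54 ± 0.22 for CLCA1, and none was called by edgeR. The part of goblet cell content in the member levels was not tested. Epithelial markers (7 of 9, none at 0, 1842 to 2782 CPM in TRT0, 2002 to 2782 in TRT6 and 1950 to 3407 in TRT12) followed the members with r = 0.497 and rho = 0.453. In TRT12 vs. TRT0 all 7 epithelial markers had log2 fold changes above 0, from 0.08 ± 0.16 for KRT19 to 0.34 ± 0.13 for VIL1, with a median of 0.23, and none was called by edgeR. The part of epithelial content in the member levels was not tested. Smooth muscle (8 of 8, none at 0, 6702 to 13070 CPM in TRT0, 6937 to 13920 in TRT6 and 7504 to 14080 in TRT12), fibroblast (6 of 6), leukocyte (3 of 8), endothelial (3 of 4) and nerve and glia markers (2 of 6) had r of 0.047, 0.090, 0.134, -0.293 and -0.095. None of the 7 listed plasma cell and B cell markers had an identifier, so those cells were not analysed here.

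**Figure D5:**
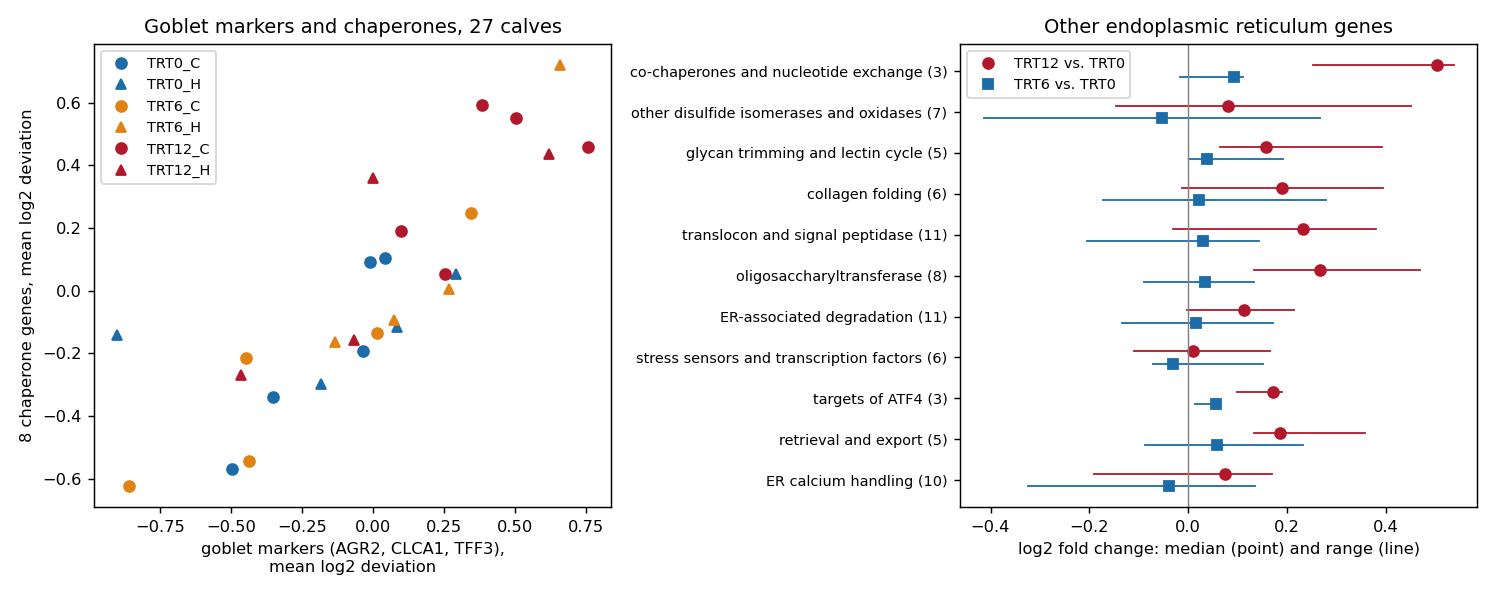
Left, mean log2 deviation of the 8 chaperone genes against that of the goblet markers AGR2, CLCA1 and TFF3 in 27 calves (r = 0.843), coloured by treatment and shaped by dam parity. Right, median (points) and range (lines) of the log2 fold change of 11 lists of other ER genes, with the number of genes tested in brackets, in TRT12 vs. TRT0 and TRT6 vs. TRT0.

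Of 128 other ER genes in 11 lists, 76 had an identifier and 75 were tested. None of 75 was called by edgeR in any of the 3 comparisons of treatments or in C vs. H, where 0% of all genes were called. DESeq2 with its filtering called RPN2 and TMED10 in TRT12 vs. TRT0 (adjusted p = 0.091 and 0.074), where it called 51 of 697 genes (7.32%). Neither was called with that filtering switched off. RPN2 and TMED10 had r of 0.965 and 0.679 with the member mean, and the members were selected on this comparison. Their calls are thus no support for a difference in the members. In TRT12 vs. TRT0 65 of 75 log2 fold changes were above 0, with a median of 0.16, against 45 of 75 in TRT6 vs. TRT0 and 24 of 75 in C vs. H.

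The lists were measured in part, so their medians in TRT12 vs. TRT0 stand for the genes tested. Of 11 co-chaperones listed 3 were tested, DNAJB11, DNAJC3 and MANF, which had a median of 0.50, with MANF, a secreted ER protein, highest at 0.54 ± 0.20. The 8 oligosaccharyltransferase genes were all above 0, with a median of 0.27 and TMEM258 highest at 0.47 ± 0.16, and their mean followed the member mean with r = 0.952. The 11 genes of the translocon and signal peptidase, which bring new proteins into the ER, had a median of 0.23, with SEC61A1 highest at 0.38 ± 0.16. Vesicle retrieval and export genes had a median of 0.19 (5 of 5 above 0), collagen folding genes 0.19 (4 of 6) and glycan trimming genes 0.16 (5 of 5). Targets of ATF4 had a median of 0.17 (3 of 3 tested, of 9 listed), with ASNS highest at 0.19 ± 0.18 and TRIB3 lowest at 0.10 ± 0.40. Their mean had r = 0.186 with the member mean, the lowest of the lists.

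The medians of other lists lay closer to 0 in TRT12 vs. TRT0. ER-associated degradation, which removes misfolded proteins, had a median of 0.11 (10 of 11 above 0), the other disulfide isomerases 0.08 (6 of 7) and ER calcium handling 0.07 (8 of 10). Single genes lay further out. Among the other isomerases TMX2 was highest at 0.45 ± 0.13 and TXNDC11 lowest at -0.15 ± 0.10. In calcium handling ATP2A2 was highest at 0.17 ± 0.08 and ITPR1 lowest at -0.19 ± 0.08. ITPR1 ran against the members across calves, with r = -0.758 to the member mean. Of 13 listed stress sensors and transcription factors, 6 were tested. Some genes of this list, but not all, carry the unfolded protein signal to the nucleus. The tested genes had a median of 0.0090, with 3 of 6 above 0. In that list NFE2L1 was highest at 0.17 ± 0.10 and CREB3L2 lowest at -0.11 ± 0.12. The list mean followed the member mean with r = 0.340, and its single genes ran from -0.18 for CREB3L2 to 0.698 for XBP1. ATF6, ERN1 and DDIT3 were among the listed genes without an identifier, so the list is read in part. These values are a description, since TRT12 vs. TRT0 was used in choosing the members, with which most of these lists correlate across calves.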

How the data were processed

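Colon RNA of 27 calves was sequenced from TruSeq libraries. The authors deposited counts of reads per Ensembl gene, made with TopHat2 2.1.1 on UMD3.1, SAMtools 1.4 and HTSeq, per the labels and the paper's methods. The strand setting is not given in the sources used here, so overlapping genes are uncertain. Treatment came from the labels, dam parity from the study's sample list, and lane from the run name of each library. Replicate numbers were given in accession order. Members, lists and tests were chosen with earlier results of these data known. Identifiers were matched to symbols (4046 of 24616) in the study's lists of core genes and of network module genes, so the lists here are partial. No bovine sequence of the build used was at hand, so none is shown.

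Counts were divided by the calf's total over genes (1163791 to 4202593) to give CPM. The 13943 genes that reached 1 CPM in 5 or more calves of every treatment entered the quasi-likelihood test of edgeR 4.0.16 (R 4.3.3), with library sizes scaled by TMM (factors 0.887 to 1.15). Treatment and parity were additive terms for the overall comparisons, and the other comparisons came from a fit of 6 group means. Genes were called at a Benjamini-Hochberg adjusted p of 0.1 and a fold change of 1.2 (no fold limit for interaction and lane). The labels do not say more of the calves' independence than separate animals, and p-values measure the spread between them. No pair of libraries agreed within sampling noise (lowest chi-square per degree of freedom 2.87 over 351 pairs). For log2 CPM a prior count of 2 was used. The code was tested on simulated data. Genes named beside the members are the 3 with the highest r to each member and the highest and lowest fold of the lists. Alternatives were DESeq2 1.42.0, the likelihood ratio test, other filters and scalings, lane as a covariate, fewer calves and, chosen after seeing the data, DESeq2 without independent filtering and leaving out the 3 least similar libraries. Descriptions used Python 3.11.15.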

Additional observations from a re-analysis of the deposited data

Results flagged for a closer look

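TRT6_H calf 2 stood apart from the calves of its own group in 6 of the 16 combinations of member and group that hold it. These were the only 6 flagged among 72 combinations examined, where chance gives about 1 in 20. The 16 were singled out after this calf had been flagged. Among the 9 TRT6 calves it was far above the next calf for CANX (938 against 726 CPM), HSP90B1 (1159 against 687 CPM), PDIA3 (711 against 441 CPM) and PDIA6 (199 against 132 CPM). Among the 4 TRT6_H calves it was far above the next calf for CALR (1070 against 657 CPM). For PDIA4 (412 against 240 CPM) its gap to the next calf was 0.829 of the range, at the limit of 0.829. The members correlate across calves, so these are not 6 separate observations. The library had 1264884 counted reads and a median correlation of 0.922 with the other libraries. The part of depth in these values was not tested.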

How the results depend on the processing

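The number of members called was 0 in each of 11 comparisons under every alternative run except DESeq2 in TRT12 vs. TRT0, with 6 members and 51 genes, and both counts were 0 with its independent filtering switched off; the calls were made over the 697 genes left by that filtering. The members were selected on this comparison, so these counts of members are no support for it. In the other comparisons the number of genes called changed as follows. It was 1 for both later treatments against TRT0 with lane as a covariate, and 1 without a filter in TRT12 vs. TRT6 and in TRT12_C vs. TRT12_H. For C vs. H it was 1 with DESeq2 with or without filtering, 2 with the likelihood ratio test and 3 without a filter. For the interaction it was 0 with core genes, with lane and without the 3 least similar libraries, and 2 with the likelihood ratio test. For lane, 336 became 60 without the 3 least similar libraries, 623 and 625 with DESeq2 without and with filtering, 685 with the likelihood ratio test and 820 without a filter. With the likelihood ratio test it was 1 in TRT6_H vs. TRT0_H, TRT6_C vs. TRT0_C, TRT0_C vs. TRT0_H and TRT6_C vs. TRT6_H, with DESeq2, filtered or not, 1, 1 and 2 in the last 3, and 1 with only the compared groups in TRT0_C vs. TRT0_H. Leaving out single calves gave 0 to 1 genes in C vs. H, TRT12 vs. TRT0, TRT6_C vs. TRT6_H and the interaction, and for lane 74 (without TRT0_C calf 1) to 1117 (without TRT12_H calf 9).

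Fold changes near 0 changed sign. With single calves left out, TRT6 vs. TRT0 ran from -0.092 to 0.171 for HSP90B1, -0.032 to 0.197 for PDIA3, -0.042 to 0.195 for PDIA4, -0.092 to 0.115 for PDIA6 and -0.125 to 0.062 for HYOU1. C vs. H ran from -0.114 to 0.075 for HSP90B1, -0.158 to 0.004 for PDIA3, -0.073 to 0.096 for PDIA4, -0.048 to 0.092 for PDIA6, -0.100 to 0.020 for P4HB and -0.067 to 0.079 for HYOU1. The median of the members ran from -0.144 to 0.024 in TRT0_C vs. TRT0_H and from -0.217 to 0.036 in TRT6_C vs. TRT0_C. Without the 3 least similar libraries, TRT6 vs. TRT0 was -0.076 for HSP90B1, -0.013 for PDIA3, -0.018 for PDIA4 and -0.111 for PDIA6, and C vs. H was 0.004 for CALR, 0.113 for HSP90B1, 0.037 for PDIA3, 0.104 for PDIA4, 0.091 for PDIA6, 0.025 for P4HB and 0.114 for HYOU1. With library totals in place of TMM, C vs. H was 0.032 for PDIA4, 0.037 for PDIA6 and 0.042 for HYOU1, and the TRT0_C vs. TRT0_H median was 0.035. PDIA6 in C vs. H was 0.001 with core genes and 0.002 without the 10 highest genes, and HYOU1 in TRT6 vs. TRT0 was 0.015 with lane. The cause was not tested. All TRT12 vs. TRT0 and TRT12 vs. TRT6 folds of the members kept their sign under all alternatives run. The list was selected on higher CALR and CANX in these same TRT12 calves, and the members correlate. A stable sign is thus no support for a difference. With the 10 highest genes left out of the totals, mean levels were 1104 CPM for CALR, 1149 for CANX, 1096 for HSP90B1, 681 for PDIA3, 419 for PDIA4, 208 for PDIA6, 890 for P4HB and 195.5 for HYOU1. No paired analysis was possible because replicate numbers were given in accession order and do not pair calves. With 98 or more counts per member and calf, counting error was smaller than the spread between calves. The part of depth in the member levels was not tested.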
